A study of Mus musculus with 8 samples.

Results

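RNA was sequenced from cultured mouse hippocampal neurons in which Rbfox1 and Rbfox3 had been knocked down and a cytoplasmic isoform of Rbfox1 had been put back, and the question here is what still differed from cultures that were never depleted. Each gene's level in the cytoplasmic rescue was divided by its level in the control on a log2 scale, for genes with an FPKM (fragments scaled to transcript length and to library size) of at least 1 in either group. That gave 12491 genes of the 15794 genes in all deposited expression tables. For splicing, cassette exons (exons that are either kept or skipped) were taken when the same exon with the same pair of neighbouring exons was listed in the knockdown table and in the cytoplasmic rescue table, which gave 48 exons in 45 genes of 551 exons in all. Just inside the expression minimum lay Adamts20, at 0.779 FPKM in control and 1.0 in rescue, and just outside it lay Nsun3, at 0.999642 FPKM in control and 0.723 in rescue.

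The series has 8 samples in 4 groups of 2. All neurons received adeno-associated virus 2/9 at 9 days in vitro, with the synapsin I promoter driving the insert, and then Accell siRNA, a chemically modified siRNA that cells take up unaided, for 4 days from day 10, and were collected at day 14. The control carried EGFP and non-targeting siRNA. The knockdown carried the same insert with siRNA to Rbfox1 and Rbfox3. The cytoplasmic rescue carried the same siRNA and Flag-Rbfox1_C_siMt, and the nuclear rescue the same siRNA and Flag-Rbfox1_N_siMt, where the labels do not explain siMt. The synapsin promoter is active mainly in neurons, so the rescue was directed to neurons and not to the glia of the culture. The control therefore differs from the rescue in siRNA and in insert at once, and Rbfox3 was targeted by siRNA but not put back.

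Rbfox proteins are RNA-binding proteins that recognise a short GCAUG-containing motif. Nuclear forms bind introns beside alternative exons and steer whether the exon is kept. Splicing of Rbfox1 itself gives a form without the nuclear signal that stays in the cytoplasm and binds the untranslated parts of mature messenger RNA, where it is known to affect stability and translation of neuronal transcripts.

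Each group has 1 deposited FPKM per gene, in which the libraries were already combined, so no spread between samples can be given. The error printed after ± is the implied error, the root of the summed squares of the errors that the authors' test statistics imply for knockdown against control and for rescue against knockdown. It is not a measured spread, and it is wide, because the knockdown error enters it although the knockdown value cancels from the ratio. Over the 12454 genes that could be tested, the median implied error was 0.214 on the log2 scale, and the log2 ratios themselves had a scaled median absolute deviation of 0.169 around a median of -0.03. The other 37 genes were not tested because they were listed at 0 in a group, and 36 of them were microRNA or small nucleolar RNA genes. FPKM values keep no trace of depth, so the depth behind each value is unknown. With 2 samples a group and a normal approximation, the p-values below rest on the authors' model of the spread rather than on a spread seen here.

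Most genes in the cytoplasmic rescue lay near control. Within 1.5-fold lay 12122 of the 12454 genes, which is 97.3%. By 1.5-fold or more, 232 genes were lower (1.86%) and 100 were higher (0.803%). By 2-fold or more, 40 were lower (0.321%) and 22 higher (0.177%). The z test of the log2 ratio over its implied error, with Benjamini-Hochberg adjustment over all tested genes at 0.05, called 57 genes (0.458%), of which 47 were lower (0.377%) and 10 higher (0.0803%). Without adjustment 521 genes (4.18%) had a p below 0.05. When the larger of the errors was used alone, 206 genes were lower (1.65%) and 85 higher (0.683%), all 57 among them. The smallest difference among the 57 was 0.71 on the log2 scale, and 33 of them had at least 5 FPKM in both groups. The median called-lower gene stood at 52.8% of control in the cytoplasmic rescue, beside 52.1% in the knockdown and 53.6% in the nuclear rescue. The median called-higher gene stood at 174% of control, beside 150% in the knockdown and 145% in the nuclear rescue. All these ratios share the control value, so they are set side by side only.

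**Figure D1:**
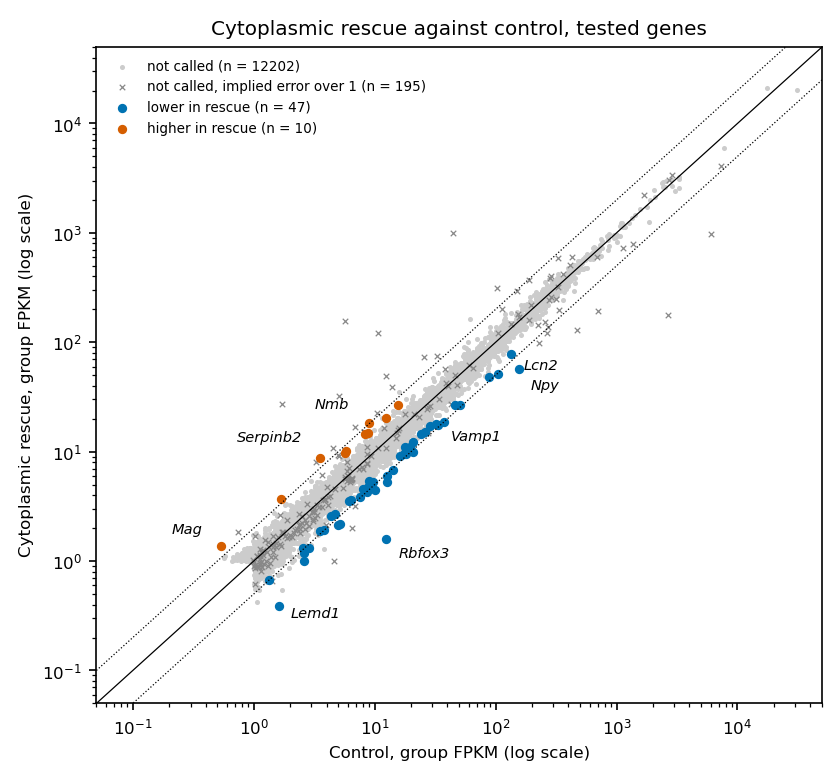
Group FPKM in control (horizontal, log scale) against cytoplasmic rescue (vertical, log scale), with 1 point for each tested gene. The solid line marks equal levels and the dotted lines 2-fold. The 47 blue genes lie below the line, the 10 orange genes above it, and crosses mark uncalled genes whose implied error was over 1.

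The targeted family comes first. Rbfox3, the neuronal nuclear antigen NeuN (XLOC_004016, mm9 chromosome 11, 118351074 to 118770886), measured 12.4 FPKM in control, 1.59 in the knockdown, 1.59 in the cytoplasmic rescue and 1.53 in the nuclear rescue. It was low in every group that received the Rbfox siRNA, and its log2 ratio of -2.96 ± 0.26 against control was the lowest of the called genes (z test on the authors' errors, Benjamini-Hochberg adjusted p = 1.09e-26). Rbfox1 (chromosome 16, 5884886 to 7412573) measured 25.7 FPKM in control, 1.94 in the knockdown, 16.1 in the cytoplasmic rescue and 38.2 in the nuclear rescue. In the cytoplasmic rescue it reached 62.5% of control, a log2 ratio of -0.68 ± 0.22 that did not pass the z test on the authors' errors (Benjamini-Hochberg adjusted p = 0.182), though it did with the larger error alone (adjusted p = 0.00184). These FPKM values do not separate vector RNA from the cell's own Rbfox1 RNA. Rbfox2, the family member that was not targeted, measured 35.4 FPKM in control, 42.1 in the knockdown, 33.2 in the cytoplasmic rescue and 17.7 in the nuclear rescue, and its log2 ratio of -0.10 against control in the cytoplasmic rescue was not called.

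Npy, Grp, Nptx2 and Nmb, which encode secreted signals of neurons, are described together. Npy, neuropeptide Y, a transmitter peptide of many inhibitory interneurons (chromosome 6, 49772728 to 49779504), measured 155 FPKM in control, 38.6 in the knockdown, 57.0 in the cytoplasmic rescue and 41.9 in the nuclear rescue. In the cytoplasmic rescue it lay above the knockdown and at 36.9% of control, a log2 ratio of -1.44 ± 0.20 (z test on the authors' errors, Benjamini-Hochberg adjusted p = 8.21e-09). Grp, gastrin-releasing peptide, measured 106 FPKM in control, 37.5 in the knockdown and 51.1 in the cytoplasmic rescue, which is 48.4% of control. Nptx2, a secreted pentraxin that gathers AMPA-type glutamate receptors at synapses (chromosome 5, 145306756 to 145318347), measured 88.8 FPKM in control, 30.1 in the knockdown, 48.2 in the cytoplasmic rescue and 29.1 in the nuclear rescue. It too lay above the knockdown and below control, at a log2 ratio of -0.88 ± 0.20 (z test on the authors' errors, Benjamini-Hochberg adjusted p = 0.00559). In the authors' deposited table of rescue against knockdown, Npy and Nptx2 were themselves higher in the cytoplasmic rescue (log2 fold change 0.56 and 0.68, q = 0.0220 and 9.65e-04). Nmb, neuromedin B, went the other way, with 8.97 FPKM in control, 19.7 in the knockdown, 18.2 in the cytoplasmic rescue and 22.9 in the nuclear rescue. All 3 siRNA groups were about 2-fold above control for it, and the log2 ratio of the cytoplasmic rescue was 1.02 ± 0.24 (z test on the authors' errors, Benjamini-Hochberg adjusted p = 0.0116).

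Among 22 tested genes for neuropeptides and interneuron markers, 4 were called lower (Npy, Gad2, Rxfp1 and Htr1a) and 1 higher (Nmb), while 17 lay below 0 with a median log2 ratio of -0.44. Over all tested genes 0.377% were called lower and 0.0803% higher, 57.1% lay below 0 and the median was -0.03. The list was chosen with earlier results of these data known, and its members Rxfp1 and Htr1a encode receptors. Rxfp1, a relaxin receptor, measured 2.61 FPKM in control, 0.847 in the knockdown and 1.01 in the cytoplasmic rescue. Gad2, which makes the inhibitory transmitter GABA, measured 24.4 FPKM in control, 16.8 in the knockdown, 14.6 in the cytoplasmic rescue and 14.9 in the nuclear rescue, a log2 ratio of -0.74 ± 0.20 for the cytoplasmic rescue (z test on the authors' errors, Benjamini-Hochberg adjusted p = 0.0441). In bulk RNA fewer cells of a type and less RNA in each cell cannot be told apart.

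Of 21 tested GABA signalling genes 2 were called lower, Gad2 among them, and none was called higher, beside 0.377% and 0.0803% of all tested genes. Below 0 lay 18 of the 21, beside 57.1% of all genes, with a median log2 ratio of -0.17 and a range from -0.74 to 0.18. With the larger error alone 4 were lower, beside 1.65% of all tested genes with that error. Gabrd, a subunit of GABA-A receptors outside the synapse, measured 12.5 FPKM in control, 7.87 in the knockdown and 7.54 in the cytoplasmic rescue, a log2 ratio of -0.73 without passing the test. Centring the ratios on their median took both genes of this list out of the calls.

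Of the 37 tested genes for synaptic vesicles and release, only Vamp1 was called by the z test, and 25 (67.6%) lay below 0 (median -0.10). Among all tested genes 0.458% were called and 57.1% lay below 0. Vamp1, a SNARE protein of the synaptic vesicle membrane (chromosome 6, 125165599 to 125172324), measured 33.3 FPKM in control, 7.18 in the knockdown, 17.6 in the cytoplasmic rescue and 26.5 in the nuclear rescue. The cytoplasmic value lay between knockdown and control, at 52.9% of control (log2 ratio -0.92 ± 0.21, z test on the authors' errors, Benjamini-Hochberg adjusted p = 0.00745). In the authors' deposited table of rescue against knockdown its log2 fold change was 1.30. The vesicle genes Rab3c, Napb and Rph3a had log2 ratios of -0.46, -0.42 and -0.44 and were not called.

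Genes of the cell surface and its surroundings were also among those called lower. Acan, aggrecan, the core protein of perineuronal nets (chromosome 7, 86198369 to 86259985), measured 5.19 FPKM in control, 1.97 in the knockdown, 2.19 in the cytoplasmic rescue and 1.94 in the nuclear rescue. The 3 siRNA groups lay close together, and the cytoplasmic rescue stood at 42.2% of control (log2 ratio -1.25 ± 0.21, z test on the authors' errors, Benjamini-Hochberg adjusted p = 9.19e-06). Cdh13, a cadherin anchored to the membrane by a lipid (chromosome 8, 120807655 to 121847348), measured 37.4 FPKM in control, 20 in the knockdown and 18.8 in the cytoplasmic rescue. Sorcs3, a sorting receptor of neurons, measured 19.8 FPKM in control, 8.10 in the knockdown and 10.5 in the cytoplasmic rescue. In the cytoplasmic rescue Cdh13 stood at 50.3% and Sorcs3 at 52.8% of control. The remaining surface and secreted genes called lower included the cadherins Cdh12 and Pcdh11x, the cation channel Trpc6, the AMPA receptor partner Cnih3, the acetylcholine receptor subunit Chrna1, the serpin gene Serpinf1, and the growth factor genes Tgfb2 and Pthlh. These were picked out from the full set of called genes by what they encode.

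Of the remaining genes called lower, Abhd3, a lipase that acts on phospholipids, measured 12.6 FPKM in control, 5.69 in the knockdown, 5.29 in the cytoplasmic rescue and 5.68 in the nuclear rescue. Its cytoplasmic value, 41.9% of control, lay with the other siRNA groups (log2 ratio -1.25 ± 0.22, z test on the authors' errors, Benjamini-Hochberg adjusted p = 3.84e-05). Mbtps1, the site-1 protease that releases membrane-bound transcription factors in the Golgi (chromosome 8, 122032052 to 122082661), measured 14.1 FPKM in control, 7.32 in the knockdown and 6.82 in the cytoplasmic rescue. Zdhhc22, a member of the palmitoyltransferase family, measured 20.6, 12.1 and 9.98 FPKM in the same order. Necab3, a neuronal calcium-binding protein, measured 12.6, 5.24 and 6.02 FPKM, and Vat1l measured 10.1, 5.25 and 4.47. Rnf112, a RING finger protein of neurons, measured 51.2, 31.0 and 26.5 FPKM, and Arr3, cone arrestin, 4.96, 1.43 and 2.15. For each of these 6 genes the cytoplasmic rescue lay between 43.3% and 51.7% of control. Other genes called lower were Lemd1, Tmem11, Ramp3, Ralb, Ypel2, Nipal3, Pdcd10, Lcn2, Cpxm2, Lgi2, Ccdc3, Amz1, Car8, Thsd4, Myh8, Slc36a1 and Acvr1c. Lcn2, lipocalin 2, a secreted protein that reactive astrocytes are known to make, was the most abundant of these in control, with 134 FPKM in control, 81.9 in the knockdown and 78.9 in the cytoplasmic rescue. Lemd1 measured 1.61 FPKM in control and 0.392 in the cytoplasmic rescue. Only control, where it was higher, brought Lemd1 past the minimum of 1 FPKM. Its implied error of 0.509 was the largest among the called genes.

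Of the 10 genes called higher, Serpinb2, plasminogen activator inhibitor 2 (chromosome 1, 109408000 to 109422177), had 3.55 FPKM in control, 4.73 in the knockdown, 8.71 in the cytoplasmic rescue and 4.92 in the nuclear rescue. The cytoplasmic rescue alone stood well above the other groups for it (log2 ratio 1.29 ± 0.27 against control, z test on the authors' errors, Benjamini-Hochberg adjusted p = 0.00142). For the transcript 4932411L15 the cytoplasmic rescue was also the highest group, with 5.81 FPKM in control, 5.2 in the knockdown, 10.1 in the cytoplasmic rescue and 5.79 in the nuclear rescue. Arl5b, a small GTPase of the ARF family, measured 8.29, 10.3, 14.5 and 12.1 FPKM in that order of groups. Stard4, a carrier of cholesterol between membranes, measured 12.3, 15.1, 20.2 and 17.7 FPKM, and Camkk2, the kinase that activates calmodulin-dependent kinases, 15.5, 20.6, 26.5 and 21.9. For these 3 genes the cytoplasmic rescue was the highest group and control the lowest. All 10 genes were called for a cytoplasmic rescue above control, so that part of the order was set by the choice. Coro2a, an actin-binding coronin, measured 5.73 FPKM in control and 9.51, 9.77 and 9.70 in the knockdown, cytoplasmic and nuclear rescue, so that the siRNA groups lay together. Prph, the intermediate filament peripherin, likewise measured 1.68 FPKM in control and 3.62, 3.72 and 4.37 in the siRNA groups.

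Htr1a, the inhibitory serotonin receptor 1A (chromosome 13, 106233773 to 106238213), is a low gene that was called lower. It measured 1.34 FPKM in control, 1.45 in the knockdown, 0.665 in the cytoplasmic rescue and 1.35 in the nuclear rescue. Of control and cytoplasmic rescue, only control, where it was higher, brought Htr1a past the minimum of 1 FPKM. The cytoplasmic rescue was the low group, at 49.7% of control, while the knockdown and nuclear rescue stood at 109% and 101% (log2 ratio -1.01 ± 0.27, z test on the authors' errors, Benjamini-Hochberg adjusted p = 0.0424). In the authors' deposited table of rescue against knockdown the log2 fold change of Htr1a was -1.13, that of Serpinb2 0.88 and that of 4932411L15 0.95. The call on Htr1a was lost after centring on the median, with a minimum of 5 FPKM, and when a difference of at least 0.5 on log2(FPKM + 1) was also asked for.

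**Figure D2:**
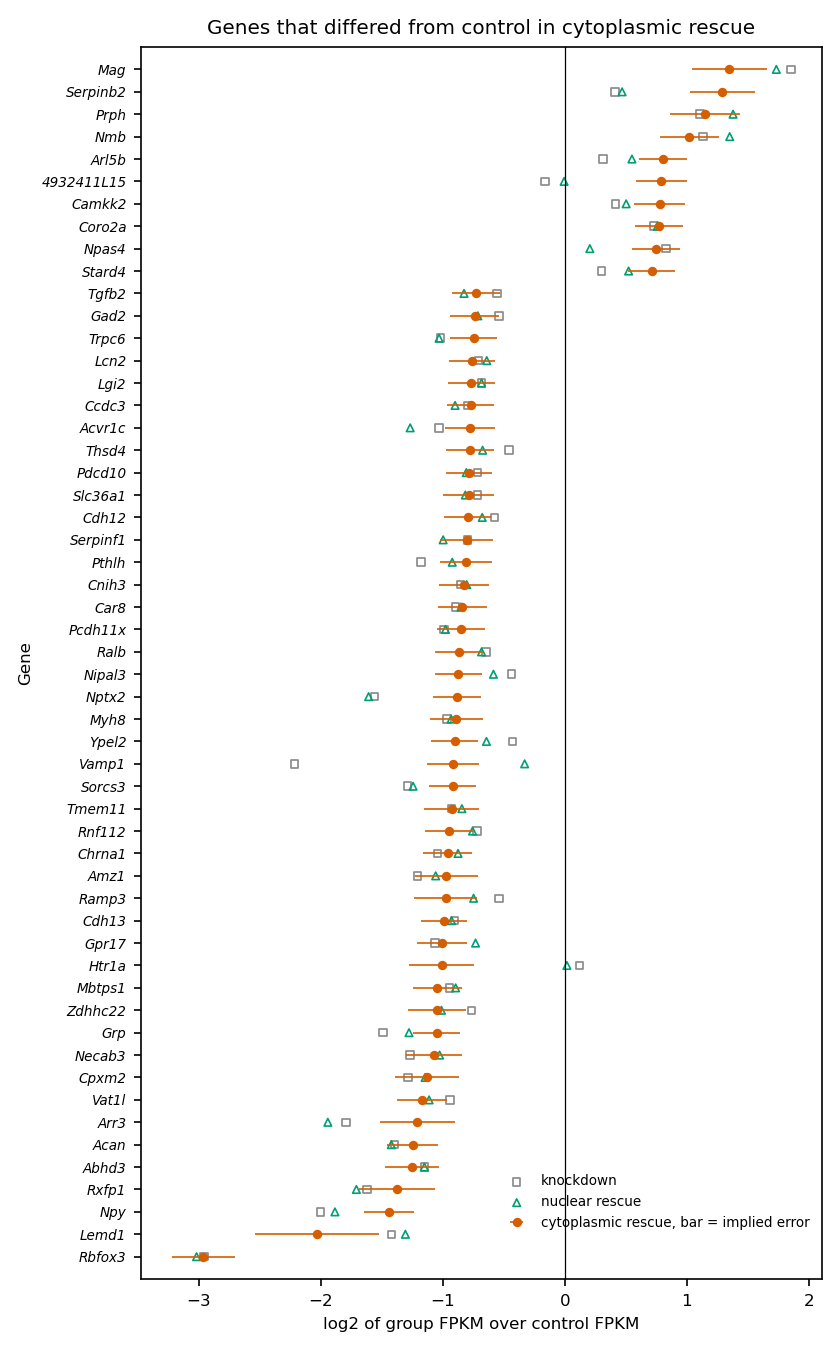
Of the 57 genes called in the cytoplasmic rescue against control, 54 are drawn, ordered by their log2 ratio, with group FPKM over control FPKM on the horizontal log2 axis. Orange points are the cytoplasmic rescue with the implied error as bar, grey squares the knockdown and green triangles the nuclear rescue. For Htr1a, Serpinb2 and 4932411L15 the orange point stands apart from the other marks.

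The cytoplasmic and nuclear rescues were compared directly for the 57 genes, with the same kind of z test over 12506 genes. It called 4 genes (0.032%), which were Rbfox1, Gm20594, Iyd and Ptgs2, and none of the 57. Of the 57 genes 9 had an unadjusted p below 0.05 in this comparison, beside 115 of all 12506 genes (0.92%). Since the 57 were chosen on the same cytoplasmic rescue values, the count of 9 is a description only. The 9 were Htr1a, 4932411L15, Nptx2, Serpinb2, Npas4, Vamp1, Acvr1c, Arr3 and Npy. Against control, the nuclear rescue had 70 genes lower and 30 higher of 12479 tested (0.801%). That count shares its control libraries with the count for the cytoplasmic rescue.

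The same comparison can be read from the genes that knockdown had changed. In the authors' deposited table of knockdown against control, 201 of the tested genes were lower at q below 0.05 (1.61%) and 109 higher (0.875%). They were chosen with the same control values, so their levels are a description. The 201 genes stood at a median of 60% of control in the knockdown and 64.7% in the cytoplasmic rescue (quartiles 56.9% and 73.4%), beside 61.0% in the nuclear rescue. The 109 genes stood at 155% of control in the knockdown and 134% in the cytoplasmic rescue (quartiles 122% and 150%), beside 149% in the nuclear rescue. Within 1.25-fold of control in the cytoplasmic rescue lay 27 of the 201 and 33 of the 109.

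Among these genes with at least 5 FPKM in control or knockdown, the 10 whose rescue value lay nearest to control included Eif2ak2, the antiviral kinase PKR that halts translation. It measured 7.06 FPKM in control, 19.3 in the knockdown, 6.74 in the cytoplasmic rescue and 6.63 in the nuclear rescue, so that the knockdown alone was high. Tyro3, a receptor tyrosine kinase, measured 31.2 FPKM in control, 22.4 in the knockdown, 30.5 in the cytoplasmic rescue and 24.7 in the nuclear rescue. Ociad2 measured 39.9, 28.0, 42.6 and 30.2 FPKM in that order, and Camta1, a calmodulin-binding transcription activator, 8.29, 5.47, 8.04 and 6.99. All 3 lay within 1.07-fold of control in the cytoplasmic rescue, while the nuclear rescue lay between knockdown and control. The 10 genes were chosen for a cytoplasmic rescue value near control, so that nearness was set by the choice. Tyro3, Ociad2 and Camta1 were not among the 4 genes called between the rescues. Mapk3, the kinase ERK1, measured 16.2 FPKM in control, 22.6 in the knockdown, 17.2 in the cytoplasmic rescue and 21.8 in the nuclear rescue. The others nearest to control were Xkr4, Scrn3, Fnbp1l, Gpr158 and Grb14. At the far end, beside genes described above, lay Lars2, the mitochondrial leucyl-tRNA synthetase. It measured 61.8 FPKM in control, 155 in the knockdown, 164 in the cytoplasmic rescue and 1347 in the nuclear rescue. Its log2 ratio of 1.41 ± 0.47 for the cytoplasmic rescue against control was not called. None of these genes had passed control by 1.5-fold on the side away from the knockdown.

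The other gene lists held few calls, and over all tested genes 0.458% were called and 57.1% lay below 0. Activity-regulated genes, which neurons switch on after firing, had 35 tested, 1 called higher (Npas4) and 2 lower (Nptx2 and Sorcs3), with 20 above 0 and a median log2 ratio of 0.14. Npas4, a transcription factor induced by calcium entry (chromosome 19, 4984355 to 4989971), measured 8.88 FPKM in control, 15.8 in the knockdown, 14.9 in the cytoplasmic rescue and 10.2 in the nuclear rescue. The cytoplasmic value lay near the knockdown and the nuclear value near control (log2 ratio 0.75 ± 0.19 for the cytoplasmic rescue, z test on the authors' errors, Benjamini-Hochberg adjusted p = 0.0328). Ier2, an immediate early gene, measured 8.45 FPKM in control and 13.5 in rescue and did not pass (log2 ratio 0.67 ± 0.21). Calcium signalling genes had 37 tested with 1 called higher (Camkk2) and a median of 0.01. The calcium-binding protein genes Calb2 (90.1 FPKM in control, 137 in rescue) and Hpcal4 (86.7 and 53.5) had log2 ratios of 0.60 and -0.70 without passing.

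None of the 37 voltage-gated channel genes was called (median log2 ratio -0.03), and none of the 30 glutamate receptor and scaffold genes (median -0.06). With the larger error alone 3 channel genes were lower and none of the glutamate list, beside 1.65% of all tested genes with that error. Kcnab2, an auxiliary subunit of potassium channels, measured 39.1 FPKM in control, 31.4 in the knockdown and 23.9 in rescue, and Grin1, the obligatory NMDA receptor subunit, 44.2, 36.8 and 31.4. Neither passed (log2 ratios -0.71 and -0.49). Of 24 neuronal cytoskeleton genes 1 was called higher (Prph), and the median was 0.09. No gene was called by the z test in the lists for autism-related genes (30 tested, median -0.09), splicing regulators and RNA-binding proteins (45, median -0.02), interferon and antiviral response (22, median -0.10), or endoplasmic reticulum and amino acid stress (32, median -0.06). With the larger error alone these 4 lists held 1 call, Nova2, a neuronal splicing regulator at 0.835 FPKM in control and 1.28 in rescue. Over all tested genes 0.683% were higher and 1.65% lower with that error. Nova2 met the minimum of 1 FPKM only through the rescue, where it was higher. Cytosolic ribosomal protein genes had 28 tested and none called, with 27 above 0 in a narrow range from -0.01 to 0.24 around a median of 0.10. The 13 reference genes had a median of -0.01, and Gapdh measured 549 FPKM in control and 482 in rescue.

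**Figure D3:**
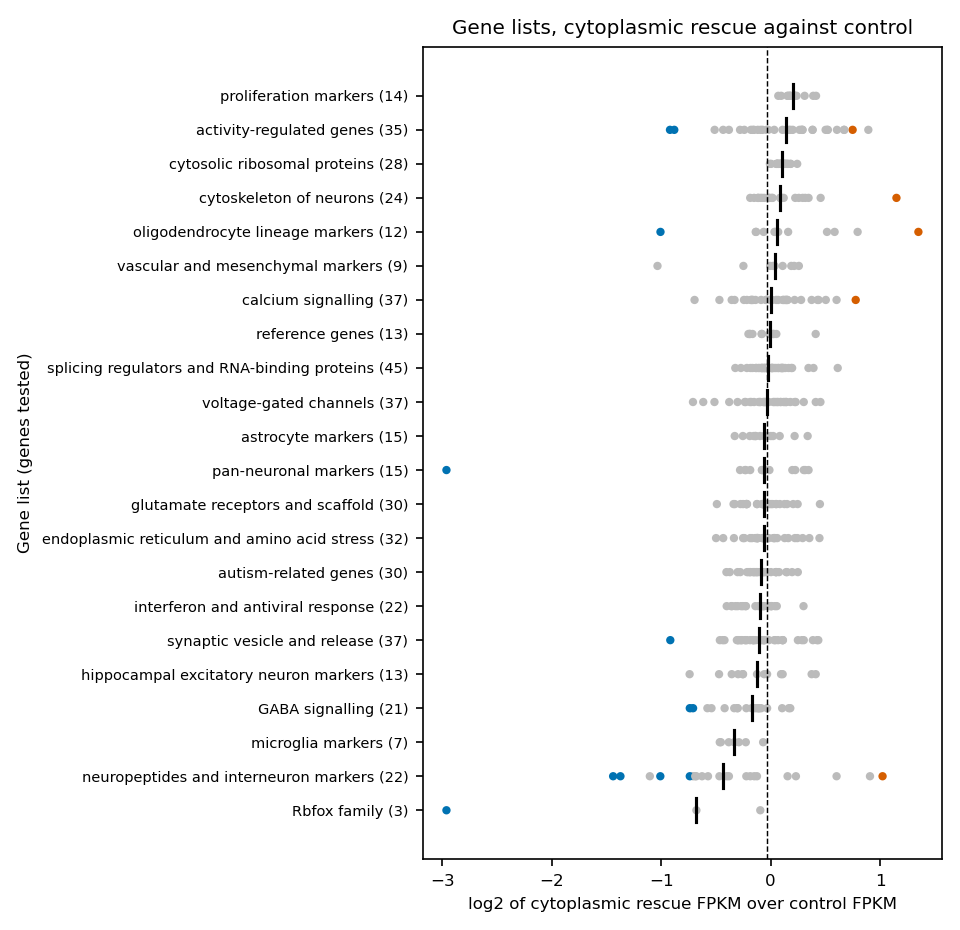
Log2 ratio of cytoplasmic rescue over control for each tested gene of 22 lists, with the number tested in brackets. The black bar is the list's median, the dashed line the median of all tested genes (-0.03), and blue and orange points are genes called lower and higher. Neuropeptide and interneuron genes lie low and activity-regulated genes spread to both sides.

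Markers of cell types checked the label and the makeup of the cultures. The pan-neuronal markers were present, with 15 of 15 tested. Apart from Rbfox3 none of them was called, and their summed level was 2415 FPKM in control, 2302 in the knockdown and 2345 in rescue. Excitatory hippocampal markers summed to 448, 401 and 417 FPKM in that order, with 13 tested and none called. The cultures also held other cells, since 16 astrocyte markers summed to 2064, 2116 and 1910 FPKM. Of these 15 were tested and none was called, and Gfap, an astrocyte filament, measured 569, 570 and 477 FPKM. Microglia markers were near the detection minimum, with 7 of 15 tested, all below 0 (median -0.33) and none called, and a summed level of 39.3, 28.7 and 31.6 FPKM. The 14 proliferation markers were all above 0, with a median of 0.20 and none called, while 57.1% of all tested genes lay below 0. Vascular and mesenchymal markers had 9 tested and none called (median 0.04), and the lowest of them, Tagln, a smooth muscle protein gene, measured 9.11, 4.83 and 4.45 FPKM. No marker of any of these lists was listed at 0. Over all tested genes 0.458% were called, so the lack of calls in lists this short does not show an unchanged makeup.

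Oligodendrocyte lineage markers had 12 tested, 1 called higher (Mag) and 1 lower (Gpr17), beside 0.458% called of all tested genes. Mag, a myelin protein gene, measured 0.538 FPKM in control, 1.95 in the knockdown, 1.37 in the cytoplasmic rescue and 1.79 in the nuclear rescue. All siRNA groups lay above control (log2 ratio 1.35 ± 0.31 for the cytoplasmic rescue, z test on the authors' errors, Benjamini-Hochberg adjusted p = 0.00708). Mag met the minimum of 1 FPKM only through the rescue, the group where it was higher. Its call was kept without an FPKM minimum, and it was not tested with a minimum of 5 FPKM. Gpr17, a receptor of cells on the way to myelination, measured 8.60 FPKM in control, 4.12 in the knockdown, 4.28 in the cytoplasmic rescue and 5.18 in the nuclear rescue. The myelin gene Mbp measured 11.6 FPKM in control, 22.6 in the knockdown and 20.1 in rescue, a log2 ratio of 0.79 that passed with the larger error alone only. The summed level of the 17 markers was 288 FPKM in control, 308 in the knockdown and 289 in rescue. The part that the makeup of the cultures had in the called genes was not tested.

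Beside called genes such as Rbfox3 and Npy, the most extreme ratios included genes with very large implied errors that were not called. Rabggtb measured 44.6 FPKM in control, 147 in the knockdown, 999 in the cytoplasmic rescue and 46.5 in the nuclear rescue, with an implied error of 33.9 on the log2 scale. Ercc2 measured 5.64, 187, 156 and 5.97 FPKM and Rcan3 10.6, 143, 121 and 9.29, with implied errors of 12.0 and 15.0. Fam65a measured 1.71, 1.37, 27.1 and 1.5 FPKM with an implied error of 3.67. Small RNA genes filled most of the other extreme places, such as Snord104 (2655 FPKM in control, 177 in rescue) and Mir9-2 (701 and 192). In all, 195 tested genes had an implied error over 1, and 73 of these were microRNA, small nucleolar or small nuclear RNA genes by their symbols. Leaving out genes with an error over 1, 30 genes were lower and 6 higher by 2-fold or more.

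Exon inclusion in the cytoplasmic rescue lay close to control for most of the 48 exons that could be joined. Each exon has 1 deposited inclusion fraction per group. The absolute difference between rescue and control had a median of 0.03, beside 0.148 between knockdown and control, and 34 of the 48 exons lay within 0.05 of control. Only exons that the authors had called in both tables could be joined, so an exon that stayed at its knockdown level was not eligible, and nearness to control is partly set by that choice. Another 166 exons of the knockdown table were not joined. The exons below are shown because they carry the results: the 3 whose junction reads differed between rescue and control, and, for comparison, an exon each of Camkk2, Camk2g and Kcnd3, whose junction reads did not pass that test. The cassette exon is in capitals, with up to 12 coding bases of the neighbouring exons in lower case, 5′ to 3′, from the GENCODE M21 transcripts (GRCm38) in which exon length and both intron lengths match.
Stx3: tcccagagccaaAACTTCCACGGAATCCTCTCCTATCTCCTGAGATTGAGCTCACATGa
Cacna1a: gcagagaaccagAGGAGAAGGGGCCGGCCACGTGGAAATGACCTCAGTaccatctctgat
Ndrg4: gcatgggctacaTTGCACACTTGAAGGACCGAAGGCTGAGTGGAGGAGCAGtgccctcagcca
Camkk2: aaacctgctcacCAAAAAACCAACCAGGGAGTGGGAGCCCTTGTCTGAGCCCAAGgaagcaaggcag
Camk2g: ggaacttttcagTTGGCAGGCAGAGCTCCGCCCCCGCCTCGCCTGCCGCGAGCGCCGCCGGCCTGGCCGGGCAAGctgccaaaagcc
Kcnd3: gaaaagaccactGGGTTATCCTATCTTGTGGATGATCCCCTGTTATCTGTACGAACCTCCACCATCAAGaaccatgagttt

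Junction reads differed between rescue and control at 3 of the 48 exons (6.25%) by Fisher's exact test with Benjamini-Hochberg adjustment, and 8 had an unadjusted p below 0.05. All 3 were less included in the rescue. The test compares reads of pooled libraries, not conditions, and a fragment that spans both junctions of a short exon can be counted at each.

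The 46-nt exon of Stx3, a syntaxin that takes part in membrane fusion at synapses (mm9 chromosome 19, 11864538 to 11864583, minus strand), had an inclusion of 0.563 in control, 0.102 in the knockdown, 0.302 in the cytoplasmic rescue and 0.478 in the nuclear rescue. The cytoplasmic rescue lay between knockdown and control, 0.261 below control. Reads on the inclusion and skipping junctions numbered 120 and 56 in control and 115 and 152 in the cytoplasmic rescue (Fisher's exact test, two-sided, Benjamini-Hochberg adjusted p = 5.43e-06). In the matching transcript, which GENCODE annotates as subject to nonsense-mediated decay, the stop codon spans the end of the printed exon. Stx3 itself measured 7.49 FPKM in control, 15.8 in the knockdown and 9.78 in the cytoplasmic rescue (log2 ratio 0.39 ± 0.22, not called).

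The 36-nt exon of Cacna1a, the pore of P/Q-type calcium channels (chromosome 8, 87159448 to 87159483, plus strand), had an inclusion of 0.808 in control, 0.483 in the knockdown, 0.623 in the cytoplasmic rescue and 0.765 in the nuclear rescue. Its inclusion and skipping reads numbered 113 and 15 in control and 127 and 48 in the cytoplasmic rescue (Fisher's exact test, two-sided, Benjamini-Hochberg adjusted p = 0.0146). The 39-nt exon of Ndrg4 (chromosome 8, 98236225 to 98236263, plus strand) had an inclusion of 0.848, 0.630, 0.761 and 0.829 in the same order of groups. With 11659 inclusion and 1751 skipping reads in control and 9584 and 2317 in the cytoplasmic rescue it was the most deeply covered exon, and its difference of 0.0870 had an adjusted p of 7.00e-42 by Fisher's exact test. Both exons are wholly coding, and at both the order of the groups was knockdown, cytoplasmic rescue, nuclear rescue, control from low to high.

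Among the exons with the largest differences that did not pass the test, some lay below and some above control. The 15-nt exon of the kinesin Kif21a had an inclusion of 0.817 in control, 0.543 in the knockdown and 0.711 in the cytoplasmic rescue. The 115-nt exon of Gria2, an AMPA receptor subunit, measured 0.567, 0.825 and 0.712, but its junction reads hardly held any skipping (378 inclusion and 3 skipping reads in control, 453 and 0 in rescue). It is 1 of 3 exons whose fraction and junction reads gave shares over 0.2 apart in control or rescue. The 111-nt exon that the table names mKIAA0897, in Ppfia4 by GENCODE, measured 0.355, 0.548 and 0.438. In all, 5 exons lay over 0.1 from control.

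The exons of Camkk2, Camk2g and Kcnd3 printed above lay 0.029, 0.058 and 0.071 from control in the rescue, on the low side for Camkk2 and the high side for the others. The 43-nt exon of Camkk2 (named mKIAA0787 in the table, chromosome 5, 123186997 to 123187039, minus strand) had an inclusion of 0.686 in control, 0.326 in the knockdown, 0.657 in the cytoplasmic rescue and 0.813 in the nuclear rescue. The gene's own level was called higher, at 171% of control, while a difference in this exon's junction reads was not detected (387 inclusion and 115 skipping reads in control, 684 and 199 in the rescue). The 63-nt exon of the calmodulin-dependent kinase gene Camk2g (chromosome 14, 21576888 to 21576950, minus strand) measured 0.352, 0.137, 0.410 and 0.599 in that order of groups. Both rescues lay above control there. The 57-nt exon of Kcnd3, a Kv4 potassium channel (chromosome 3, 105469880 to 105469936, plus strand), was more included in the knockdown, with 0.466, 0.743, 0.537 and 0.309.

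The smallest differences were at Atg16l1 and Pmm2, whose fractions were the same in control and cytoplasmic rescue (0.815 and 0.827), and at a 20-nt exon in Bak1, named Zbtb9 in the table, with 0.305 and 0.306. Snap25, a SNARE protein of the plasma membrane, had a 118-nt exon at 0.999 in control, 0.802 in the knockdown and 0.996 in the cytoplasmic rescue. Its junction reads did not show the lower knockdown fraction. Inclusion and skipping reads numbered 11143 and 4 in control, 6019 and 7 in the knockdown and 9795 and 7 in the cytoplasmic rescue. A 30-nt exon of Oscp1 measured 0.304, 0.152 and 0.297, and an 18-nt exon of Ash2l 0.379, 0.506 and 0.372.

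**Figure D4:**
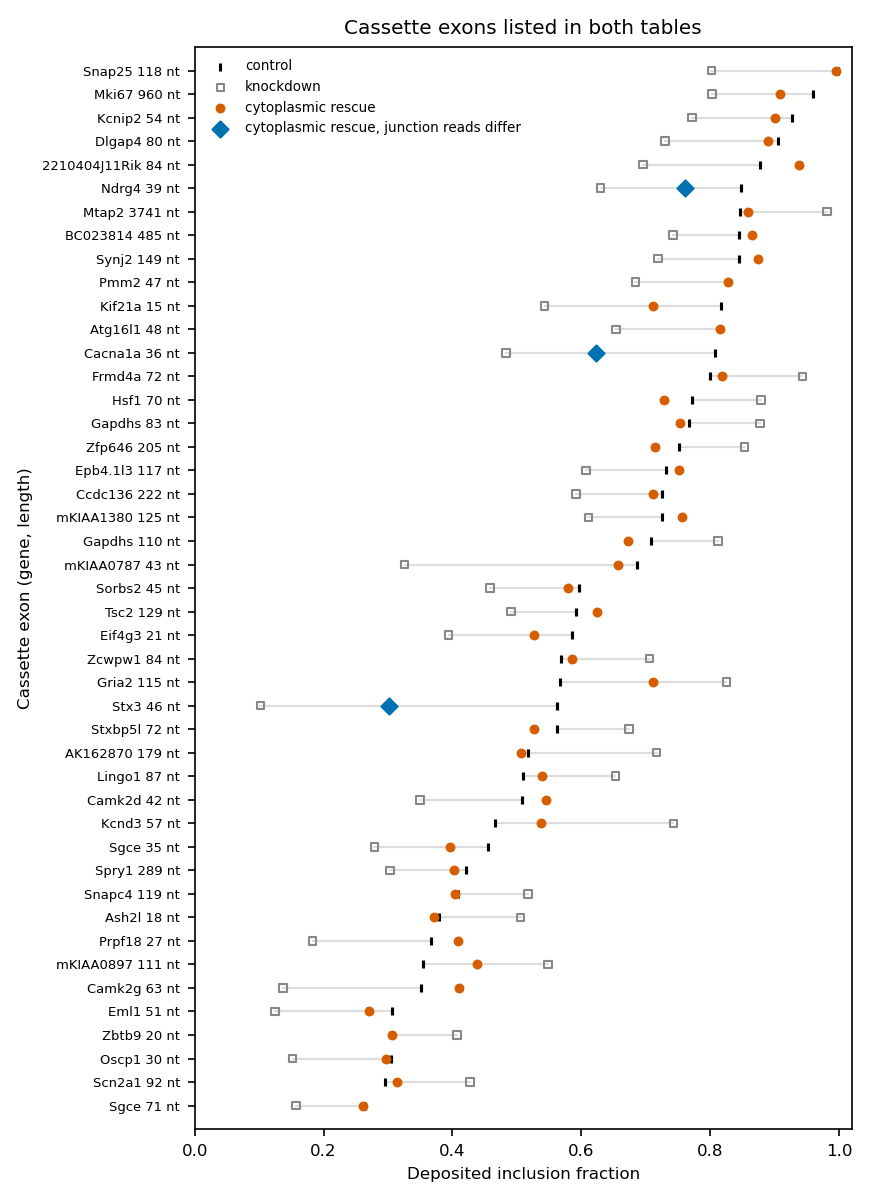
Deposited inclusion fraction (horizontal, 0 to 1) of 45 of the 48 joined cassette exons, ordered by their control value, with gene and length on the vertical axis. Black ticks are control, grey squares the knockdown, and orange points the cytoplasmic rescue. Blue diamonds mark Stx3, Cacna1a and Ndrg4, whose rescue junction reads differed from control.

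Direction and reading frame were described over the 48 exons. Of the 30 exons less included in the knockdown, 18 lay below control in the rescue, 10 above and 2 were equal, with a median difference from control of -0.0110. Of the 18 more included in the knockdown, 10 lay above control and 8 below, with a median of 0.00650. Exons whose length is a multiple of 3 numbered 28. Their median absolute difference from control was 0.0370 in the rescue and 0.158 in the knockdown. The 20 others had 0.0190 and 0.122. Such a length keeps the reading frame only where the exon is coding. Not all of the 28 were, since those in Lingo1 and Prpf18 had no coding bases in the matching transcript. Exon lengths ran from 15 to 3741 nt with a median of 71.5 nt. GENCODE transcripts matched 45 of the 48 by lengths, and 32 of these were wholly coding. Of the 45 host genes 43 were found in the expression tables, and their log2 ratios of rescue over control had a median of 0.02, with 37 within 1.25-fold and 1 called, Camkk2. Junction reads per exon ranged from 44 to 13410 in control and from 41 to 11901 in the rescue, so small differences could be detected only at the few deeply covered exons.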

How the data were processed

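Ribosomal RNA was removed and TruSeq libraries without strand information were read as paired 50-nt ends, per the labels' protocols. CASAVA and Cufflinks were used with mm9, per the submitters' processing notes. The versions of these tools were not given in the sources used here. For each group and gene the authors deposited 1 FPKM. The authors' p-value, q-value, log2 fold change and the statistic of their test stand beside it as deposited. The authors' splicing tables give an inclusion fraction per group and deposited counts of junction reads for called cassette exons only. Another 57 value columns were not used here. The labels do not say that the samples of 1 group were grown apart, so a spread between them may be technical.

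The tables were joined on gene identifier or exon coordinates. The error of each log2 ratio was the root of the summed squares of both implied errors (log2 fold change over test statistic), and a two-sided z test was adjusted by Benjamini-Hochberg in Python 3.11.15 with SciPy 1.17.1. The z test was tested on simulated data. Fisher's exact test was run on junction reads. Positions are mm9, with starts counted from 1. Overlapping genes cannot be told apart without strand. Genes were named by rule: the Rbfox genes, the 12 highest and 12 lowest called, the 10 most extreme either way, the called and the 4 most changed members of each list, 10 knockdown genes nearest and 10 farthest from control, and the 10 most and 10 least changed exons. Genes outside it were named after their values were seen. The members and lists were chosen with earlier results of these data known. Gene names of the lists matched by symbol or RefSeq synonym. Some genes and exons are not reported here, by name or in the plots.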

Additional observations from a re-analysis of the deposited data

Results flagged for a closer look

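Rbfox1 differed between the cytoplasmic and nuclear rescues, which share knockdown and control. It measured 16.1 FPKM in the cytoplasmic rescue and 38.2 in the nuclear rescue, a log2 ratio of -1.25 ± 0.24 with an adjusted p of 7.54e-04 (z test, Benjamini-Hochberg over 12506 genes). The amount of Rbfox1 RNA and the isoform therefore cannot be told apart wherever the rescues are set side by side.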

How the results depend on the processing

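No paired analysis was possible because the deposited tables hold 1 value per group, and leaving out a replicate was not run for the same reason. The 47 lower and 10 higher genes became 206 and 85 with the larger error alone, which is a smaller error by construction, and 22 and 2 at an adjusted p of 0.01. Centring on the median gave 36 lower and 13 higher, with 46 of the 57 genes kept. No FPKM minimum kept 56, losing Camkk2, and a minimum of 5 FPKM kept 44. Genes lower by 1.5-fold went from 232 to 120 with a pseudocount of 1 and 119 with a minimum of 5 FPKM, and genes higher by 1.5-fold from 100 to 59 and 60. Genes lower by 2-fold went from 40 to 14 and 19 under the same settings. List members called higher went from 5 to 3 with a minimum of 5 FPKM, which tests fewer genes. Matching on the cassette exon alone gave 8 exons over 0.1 from control in place of 5, from 51 exons. No direction reversed among the counts and named genes, but 2 of 22 list medians, both within 0.03 of 0, changed sign with centring. The FPKM values carry no depth, so the precision of low genes is not known beyond the implied error.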

Other observations

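Beside Rbfox1, 3 genes outside the 57 differed between the rescues by the z test on the authors' errors. Ptgs2, the inducible cyclooxygenase that neurons switch on with activity, measured 27.1 FPKM in the cytoplasmic rescue and 14.4 in the nuclear rescue (log2 ratio 0.91). Iyd, an enzyme that removes iodine from tyrosines, measured 0.510 and 1.83 FPKM, and Gm20594 8.57 and 29.5. These 3 genes were named after their values were seen. The comparison took genes with at least 1 FPKM in control or either rescue, and Iyd lay below 1 FPKM in the cytoplasmic rescue.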
